A study of Rattus norvegicus with 12 samples.

Results

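Transcripts of 9 genes that govern how pyruvate enters the tricarboxylic acid (TCA) cycle were followed in rat liver: the pyruvate dehydrogenase kinases Pdk1, Pdk2 and Pdk4, the pyruvate dehydrogenase phosphatase Pdp2, the pyruvate dehydrogenase complex subunits Pdha1, Pdhb and Dlat, and the TCA cycle entry enzymes Cs and Idh3a. They were chosen by name, with earlier results of these data known. Each had a single row among the 34391 transcripts (24355 gene names) of the deposited expression table. All 12 animals were female rats of the Inbred alcohol-preferring (iP10a) strain, which was bred to drink alcohol by choice. The 6 EtOH animals chose among bottles of 10, 20 and 30% ethanol (v/v) and water for 23 weeks, so that the amount drunk was set by each animal. The 6 control animals had water as their sole drink, and both groups ate without restriction. The groups were not pair-fed, and the authors state from unpublished data that such rats eat less chow when they drink ethanol. Blood alcohol was undetectable at sacrifice. Livers were collected at 38 weeks of age, except that the label of EtOH animal 6 gives 39 weeks. Poly(A) RNA was sequenced, 1 library per liver, and transcript levels were given in RPKM (reads scaled to transcript length and to the mapped reads of the library), a unit that allows levels of different genes to be set side by side.

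Pyruvate made from glucose, lactate or amino acids can be oxidised in mitochondria by the pyruvate dehydrogenase complex, which yields acetyl-CoA. The complex is switched off when a kinase adds phosphate to its E1 alpha subunit and switched on again when a phosphatase removes it. Citrate synthase then joins acetyl-CoA to oxaloacetate, and NAD-dependent isocitrate dehydrogenase carries out an early oxidative step of the cycle. In liver, Pdk2 and Pdk4 are the best known kinases of the complex, and Pdk4 is known for rising in fasting, when fatty acids replace glucose as fuel. Oxidation of ethanol in hepatocytes supplies acetate and NADH, and a high ratio of NADH to NAD+ is known to favour phosphorylation of the complex. The question put to these data was whether transcripts of the kinases, phosphatase, complex and entry enzymes differed between livers of EtOH and control animals.

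Pdk4 was the 1 gene of the 9 that passed the test, and it was higher in the EtOH livers, at 35.9 ± 6.82 RPKM against 21.7 ± 6.94 RPKM in the control livers (SD, n = 6 each). Of the other 8 genes, Pdp2 was higher and Idh3a lower with an unadjusted p under 0.05, and neither passed after adjustment over all transcripts. Pdk1, Pdk2, Pdha1, Pdhb, Dlat and Cs had log2 fold changes between 0.03 and 0.21 in the test, and none of these was distinguished from the spread between livers. In no gene of the 9 were the EtOH and control groups free of overlap.

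The test was limma on quantile-normalized log2(RPKM + 0.5), with Benjamini-Hochberg adjustment over the 21718 transcripts above 0 in at least 1 liver and a threshold of 0.05 on the adjusted p. It called 526 transcripts, of which 245 were higher and 281 lower in EtOH livers. The share called was 2.42% of all tested transcripts, with 1.13% called higher and 1.29% called lower. Among the 11086 transcripts with a mean of at least 1 RPKM, which included all 9 genes, 4.47% were called, 24.3% had an unadjusted p under 0.05 and 5.76% had groups that did not overlap. Against these shares, 1 of the 9 genes was called, 3 had an unadjusted p under 0.05 and 0 had groups that did not overlap. Overlap was read from RPKM as deposited, a different scale from that of the test. The log2 fold change was above 0 for 8 of the 9, with a median of 0.09, where the median of all tested transcripts was 0.00. The reads recovered from the RPKM values numbered 2610238 to 4318141 per control liver and 3945593 to 6030028 per EtOH liver, so the EtOH livers were sequenced more deeply as a group, and the part of that difference in the results below was not tested.

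**Figure D1:**
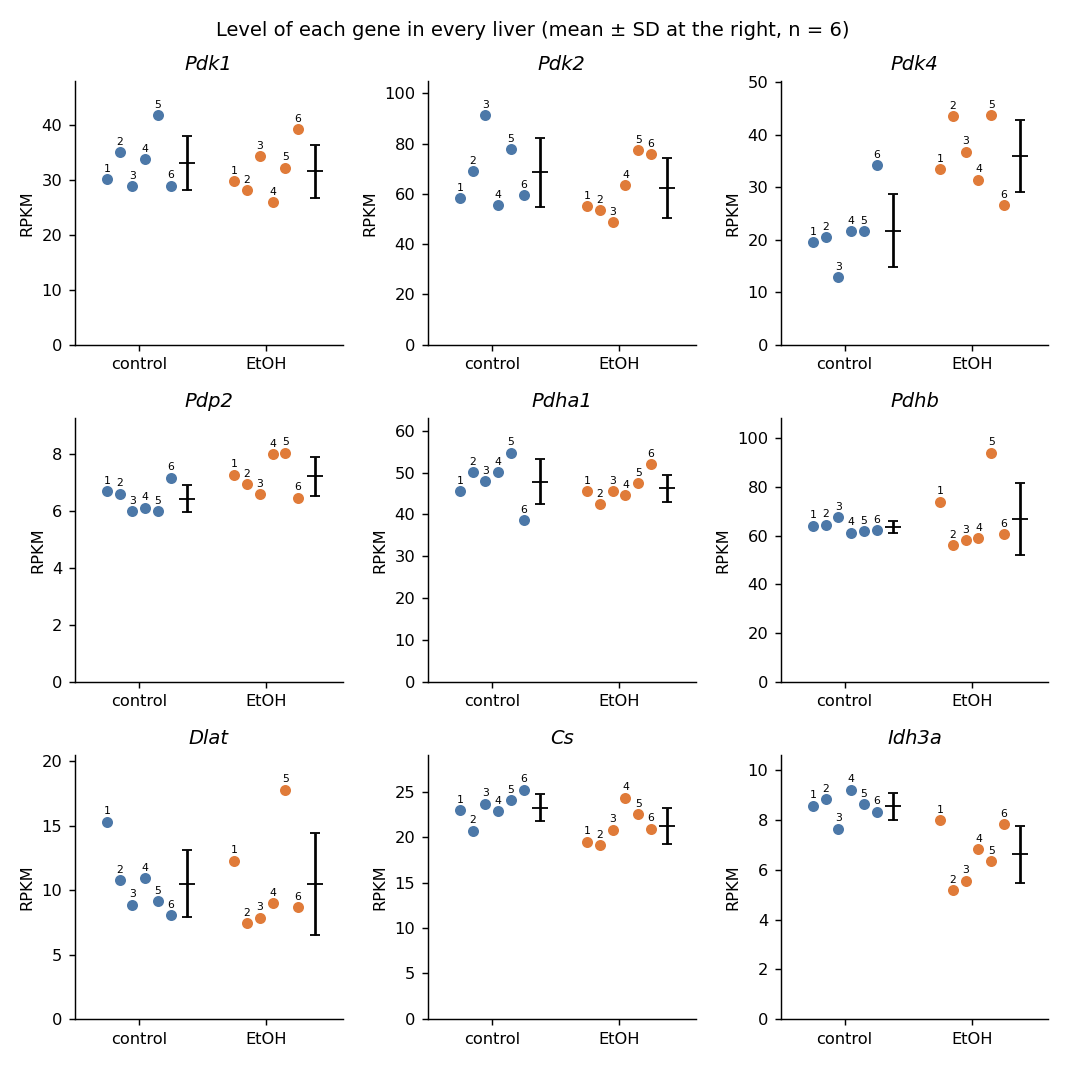
Level of each of the 9 genes in every liver, in RPKM as deposited, for 6 control (blue) and 6 EtOH (orange) animals; the number above each point is the animal number, and the bar at the right of each group is the mean ± SD. The axis of each panel starts at 0. For Pdk4, 3 EtOH livers lie above every control liver, and control animal 6, at 34.2 RPKM, lies among the EtOH livers.

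Pdk4 is the kinase isoform that answers to fasting and to glucocorticoids, and its row lies on chromosome 4 from 30235296 to 30245298 in the coordinates of the table, for which no source used here names a genome build. In the control livers it was at 19.5, 20.5, 12.9, 21.6, 21.7 and 34.2 RPKM in animals 1 to 6. In the EtOH livers it was at 33.4, 43.6, 36.8, 31.5, 43.7 and 26.7 RPKM in animals 1 to 6. All 6 EtOH livers were above the control median of 21.1 RPKM, and 3 were above all control livers. Control animal 6 stood within the EtOH range, and the lowest EtOH value came from EtOH animal 6, the animal labelled as 1 week older than the rest. The ratio of the group means was 1.65, and in the test the log2 fold change was 0.89 with a standard error of 0.21 and an adjusted p of 0.048 (limma, Benjamini-Hochberg). It ranked 496 of the 526 called transcripts by p, close to the threshold. The values rested on 721 control and 1592 EtOH reads, with 62 reads in the lowest liver. The spread between livers was wider than read counting alone gives, with a coefficient of variation of 31.9% in control livers where counting error accounts for 9.72%.

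Whether Pdk4 passed the threshold depended on single livers, while its direction did not. Without control animal 6 the log2 fold change was 1.05 with an adjusted p of 0.011, and without EtOH animal 6 the adjusted p was 0.045. When any 1 of the other 10 livers was left out, the adjusted p lay between 0.066 and 0.104, and the log2 fold change between 0.75 and 0.93. The call was also lost in 6 of 11 other settings, which changed the scaling, the filter, the test or added a block on animal number. In all of these settings Pdk4 was again higher in EtOH livers.

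The 250 bases before the RefSeq start of the genes are shown for Pdk4 and for Pdk2, the called kinase and the more abundant kinase that was not called, so that their upstream sequences can be compared. They come from RefSeq on GRCr8, where the Pdk4 window is chr4:34568330-34568579 and the Pdk2 window chr10:80483913-80484162, both read on the minus strand from 5′ to 3′. Capitals mark matches to 5 motifs searched on both strands: a CCAAT box (CCAAT), a GC box (GGGCGG), a nuclear receptor half-site (AGGTCA), a glucocorticoid receptor half-site (AGAACA) and a forkhead core (GTAAACA).
Pdk4: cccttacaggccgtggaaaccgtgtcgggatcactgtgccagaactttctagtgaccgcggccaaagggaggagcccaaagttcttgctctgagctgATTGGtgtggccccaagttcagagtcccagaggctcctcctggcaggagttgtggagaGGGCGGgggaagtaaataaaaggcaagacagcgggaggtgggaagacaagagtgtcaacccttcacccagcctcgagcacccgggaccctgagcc
Pdk2: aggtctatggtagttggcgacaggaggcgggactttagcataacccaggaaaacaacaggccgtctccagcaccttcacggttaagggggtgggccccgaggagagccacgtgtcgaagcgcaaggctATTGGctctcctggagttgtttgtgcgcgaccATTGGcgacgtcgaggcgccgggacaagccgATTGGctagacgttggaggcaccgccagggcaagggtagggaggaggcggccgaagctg
The Pdk4 window held 1 CCAAT box that began 153 bases before the start and 1 GC box at 95 bases. The Pdk2 window held 3 CCAAT boxes, at 122, 90 and 59 bases, and no GC box. Among 33469 rat promoter windows of the same length, 34% held a CCAAT box and 30.5% a GC box. Neither window held the letters of the nuclear receptor half-site, the glucocorticoid receptor half-site or the forkhead core, which were present in 14.1%, 17.5% and 3.21% of all windows. Windows were found for 7 of the 9 genes, and among these the nuclear receptor half-site was present in Dlat and the forkhead core in Pdhb.

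Pdk2, the most highly expressed of the kinases here, lies on chromosome 10 from 83710448 to 83724973. Its level ranged from 55.6 to 91.2 RPKM around a median of 64.3 RPKM in control livers, and from 48.6 to 77.4 RPKM around a median of 59.2 RPKM in EtOH livers. As deposited the groups overlapped, although 3 EtOH livers were below every control liver. Its log2 fold change was 0.03, with a 95% interval from -0.23 to 0.28 and an adjusted p of 0.94 (limma). On the deposited scale the mean was lower in EtOH livers, at 62.3 ± 12.0 RPKM against 68.6 ± 13.8 RPKM (SD, n = 6 each), so the sign depended on the scaling of the livers. Rows of Sgca share its position and reached at most 0.255 RPKM in any liver.

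Pdk1, a kinase known as a target of the hypoxia response, lies on chromosome 3 from 54292076 to 54319240. It ranged from 28.8 to 41.8 RPKM in control livers, with a median of 32.0, and from 25.9 to 39.3 RPKM in EtOH livers, with a median of 31.0. These ranges nearly coincide, and 3 EtOH livers were above and 3 below the control median. Pdk1 had a log2 fold change of 0.09, with a 95% interval from -0.14 to 0.31 and an adjusted p of 0.70 (limma). Pdk3, the remaining kinase, was close to the detection limit, at 0.424 ± 0.218 RPKM in control and 0.458 ± 0.146 RPKM in EtOH livers (SD, n = 6 each), with an adjusted p of 0.98.

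Shares within a liver, taken from RPKM as deposited, are not changed by a factor that scales the whole liver. Quantile normalization moves values by level, so shares after it could differ. Pdk4 made up 17.8 ± 5.96% of the summed RPKM of the 4 kinases in control livers, with a range of 9.62 to 27.8%. In EtOH livers it made up 27.8 ± 5.30%, with a range of 18.8 to 34.7% (SD, n = 6 each). The Pdk4 share of 4 EtOH livers exceeded that of every control liver. The Pdk2 share averaged 55.1% in control livers (48.4 to 68.2%) and 47.5% in EtOH livers (40.4 to 53.3%). The Pdk1 share was 26.8 ± 3.48% and 24.3 ± 3.28%. Pdk2 was thus the leading kinase transcript in all 12 livers. The order of the next 2 kinases differed, since Pdk4 was below Pdk1 in 5 of 6 control livers and above it in 5 of 6 EtOH livers. The ratio of Pdk4 to Pdk1 was 0.669 ± 0.261 in control livers and 1.16 ± 0.295 in EtOH livers. The summed kinase level was 124 ± 12.8 RPKM in control and 130 ± 14.3 RPKM in EtOH livers, a difference within 1 SD of either group. These shares use the Pdk4 values tested above and were not tested separately.

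**Figure D2:**
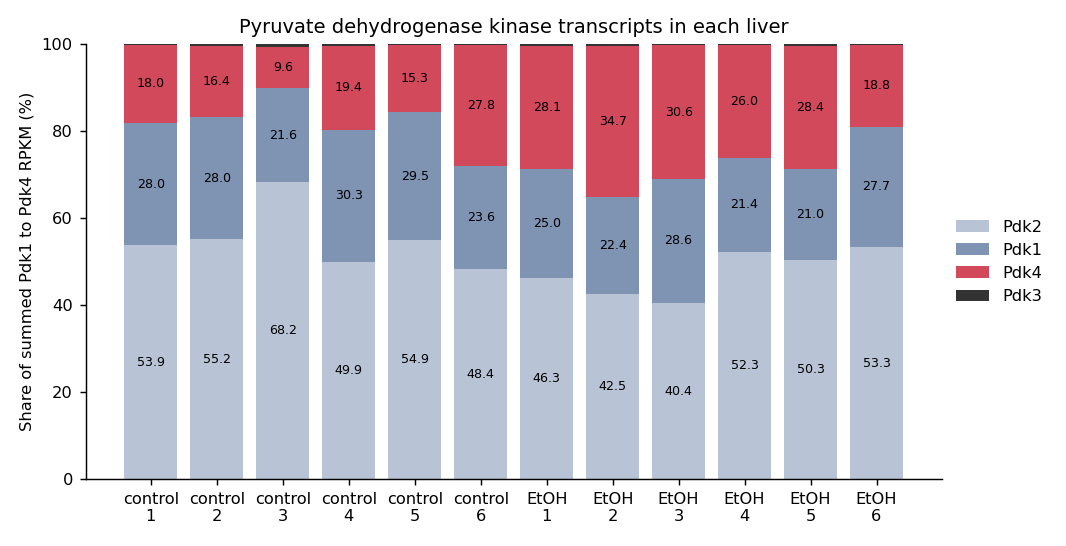
Share of each pyruvate dehydrogenase kinase transcript in the summed Pdk1 to Pdk4 RPKM of each liver, in percent, as 1 stacked bar per animal (6 control at the left, 6 EtOH at the right). The Pdk4 segment runs from 9.62 to 27.8% in control livers and from 18.8 to 34.7% in EtOH livers, and the thin Pdk3 segment at the top averages 0.336% in control and 0.356% in EtOH livers.

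Pdp2 encodes a catalytic subunit of the phosphatase that reactivates the complex, and it lies on chromosome 19 from 307518 to 312004. Its level was low and narrow, from 6.00 to 7.18 RPKM in control livers with a median of 6.37, and from 6.47 to 8.06 RPKM in EtOH livers with a median of 7.11. All 6 EtOH livers were above the control median and 3 were above every control liver. The log2 fold change was 0.26 with a standard error of 0.09, an unadjusted p of 0.015 and an adjusted p of 0.18 (limma), so Pdp2 did not pass. It rested on 372 control and 576 EtOH reads, and its coefficient of variation in control livers, 7.40%, was below the 12.9% of counting error. Pdp1, the other catalytic subunit, was at 0.878 ± 0.240 RPKM in control and 0.475 ± 0.171 RPKM in EtOH livers (SD, n = 6 each), with a log2 fold change of -0.55 and an adjusted p of 0.14, on 47 and 36 reads. Pdpr, which regulates the phosphatase, had a log2 fold change of 0.31 and an adjusted p of 0.40. The summed level of Pdp1 (the more abundant of its 2 rows) and Pdp2 was 7.32 ± 0.382 RPKM in control and 7.70 ± 0.572 RPKM in EtOH livers. Kinase transcripts exceeded phosphatase transcripts by a ratio of 17.0 ± 2.34 in control and 17.0 ± 1.95 in EtOH livers. The ratio of Pdk4 to Pdp2 alone was 3.34 ± 0.875 in control and 4.99 ± 0.921 in EtOH livers, with 3 EtOH livers above every control liver.

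Pdha1 encodes the E1 alpha subunit, the site of the regulatory phosphorylation, and lies on chromosome X from 55899491 to 55913319. It ranged from 38.6 to 54.8 RPKM in control livers, with a median of 49.0, and from 42.5 to 52.0 RPKM in EtOH livers, with a median of 45.6. Every EtOH liver lay inside the control range. The log2 fold change was 0.11, with a 95% interval from -0.02 to 0.25 and an adjusted p of 0.44 (limma). The row RGD1560603 shares its position and reached at most 0.872 RPKM, and since the reads do not carry strand here, reads of overlapping genes cannot be told apart.

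Pdhb encodes the E1 beta subunit, which pairs with E1 alpha, and lies on chromosome 15 from 18737449 to 18743390. The control livers were close together, from 61.2 to 67.6 RPKM with a median of 63.1. The EtOH livers spread from 56.1 to 94.1 RPKM with a median of 59.7. As deposited, EtOH animals 5 and 1, at 94.1 and 74.0 RPKM, were above every control liver, while the other 4 were below every control liver. After quantile normalization these 4 lay inside the control range, at log2 values of 5.95 to 5.99 against 5.84 to 6.02. The coefficient of variation was 3.67% in control livers and 22.0% in EtOH livers, where counting error gives 4.89% and 4.10%. For Pdhb the log2 fold change was 0.21, with a 95% interval from -0.02 to 0.44 and an adjusted p of 0.38 (limma).

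Dlat encodes the E2 subunit, which forms the core of the complex and transfers the acetyl group to coenzyme A, and lies on chromosome 8 from 53989493 to 54014779. It ranged from 8.04 to 15.3 RPKM in control livers, with a median of 9.97, and from 7.45 to 17.8 RPKM in EtOH livers, with a median of 8.83. The highest control value came from control animal 1 and the highest EtOH value from EtOH animal 5, and the group means were equal at 10.5 RPKM. For Dlat the log2 fold change was 0.07, with a 95% interval from -0.38 to 0.53 and an adjusted p of 0.89 (limma), and it was -0.09 without EtOH animal 5. EtOH animal 5 was thus the highest EtOH liver for Pdk2, Pdk4, Pdp2, Pdhb and Dlat. The E3 subunit Dld had a log2 fold change of -0.03 and the E3-binding protein Pdhx one of 0.07, with adjusted p of 0.83 and 0.84. Relative to Pdha1 in the same liver, Pdhb was at 1.34 ± 0.169 in control and 1.45 ± 0.301 in EtOH livers, Dlat at 0.222 ± 0.0595 and 0.227 ± 0.0818, and Pdhx at 0.222 ± 0.0271 and 0.223 ± 0.0505 (SD, n = 6 each). The proportions of the subunit transcripts therefore differed between the groups by less than the spread between livers. Relative to Pdha1, Pdk4 was at 0.470 ± 0.212 in control and 0.784 ± 0.179 in EtOH livers.

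Cs encodes citrate synthase and lies on chromosome 7 from 1626181 to 1652197. It ranged from 20.7 to 25.2 RPKM in control livers, with a median of 23.3, and from 19.2 to 24.4 RPKM in EtOH livers, with a median of 20.9. On the deposited scale 5 EtOH livers were below the control median and 2 were below every control liver. After normalization the log2 fold change was 0.03, with a 95% interval from -0.13 to 0.18 and an adjusted p of 0.89 (limma).

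Idh3a encodes the catalytic alpha subunit of NAD-dependent isocitrate dehydrogenase and lies on chromosome 8 from 58135412 to 58155798. It ranged from 7.66 to 9.22 RPKM in control livers, with a median of 8.61, and from 5.17 to 7.99 RPKM in EtOH livers, with a median of 6.58. All 6 EtOH livers were below the control median, and 4 were below every control liver. The coefficient of variation in control livers, 6.17%, was below the 12.0% of counting error. EtOH animals 1 and 6, at 7.99 and 7.83 RPKM, overlapped with the control livers. For Idh3a the log2 fold change was -0.26 with a standard error of 0.10, an unadjusted p of 0.021 and an adjusted p of 0.21 (limma), so Idh3a did not pass, on 423 reads in control and 450 reads in EtOH livers. Its sign was negative in all 12 fits that left out 1 liver and in the 11 other settings, in which the adjusted p ran from 0.093 to 0.36.

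The other subunits of the same enzyme were set beside Idh3a within each liver. Idh3b was at 58.2 ± 4.28 RPKM in control and 54.9 ± 3.96 RPKM in EtOH livers, with a log2 fold change of 0.09 and an adjusted p of 0.39. Idh3g was at 18.4 ± 2.06 RPKM in control and 15.6 ± 2.07 RPKM in EtOH livers, with a log2 fold change of -0.08 and an adjusted p of 0.65 (SD, n = 6 each). The ratio of Idh3a to Idh3b was 0.148 ± 0.0163 in control and 0.120 ± 0.0199 in EtOH livers, and it was below every control liver in 5 of the 6 EtOH livers. The ratio of Idh3g to Idh3b moved the same way, at 0.317 ± 0.0311 in control and 0.285 ± 0.0412 in EtOH livers. It was below every control liver in 4 EtOH livers, so a lower ratio to Idh3b was not particular to Idh3a. The ratio of Idh3a to Cs was 0.370 ± 0.0408 in control and 0.314 ± 0.0617 in EtOH livers, with 4 EtOH livers below every control liver. These ratios were not tested.

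Ordered by mean RPKM, the control livers had Pdk2, Pdhb, Pdha1, Pdk1, Cs, Pdk4, Dlat, Idh3a and Pdp2 from highest to lowest. Pdk2 and Pdhb were not distinguished, since Pdk2 was the higher in 3 of 6 control livers. Cs exceeded Pdk4, and Dlat exceeded Idh3a, in 5 of 6 control livers each, and the other neighbours held their order in 6 of 6. In the EtOH livers the order was Pdhb, Pdk2, Pdha1, Pdk4, Pdk1, Cs, Dlat, Pdp2 and Idh3a. Here Pdhb exceeded Pdk2 in 4 of 6 livers, Pdha1 exceeded Pdk4 and Pdk4 exceeded Pdk1 in 5 of 6 each, and Pdp2 exceeded Idh3a in 4 of 6. Pdk4 thus stood below Cs and Pdk1 in the control order and above both in the EtOH order, and Pdp2 and Idh3a stood in opposite orders.

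The sign of the small differences depended on the scaling of the livers, and for Pdk2, Cs and Dlat also on single livers. As deposited, the RPKM values of moderately expressed transcripts were lower in EtOH livers as a whole. The median difference of log2(RPKM + 0.5), EtOH minus control, was -0.08 over the 11086 transcripts with a mean of at least 1 RPKM. It was -0.15 for the 1174 transcripts between 20 and 50 RPKM and -0.15 for the 452 between 50 and 100 RPKM, the ranges that hold Pdk1, Pdk2, Pdk4, Pdha1, Pdhb and Cs. It was -0.10 between 5 and 10 RPKM, where Pdp2 and Idh3a lie, and -0.14 between 10 and 20 RPKM, where Dlat lies. Quantile normalization left each of these medians at 0.00 or 0.01 in size. On the deposited scale 6 of the 9 genes had a difference below 0. Relative to the median of their level range, Pdk4 was higher by 0.90, Pdp2 by 0.25, Pdhb by 0.20, Pdha1 by 0.11, Dlat by 0.10, Pdk1 by 0.09, Cs by 0.02 and Pdk2 by 0.01, and Idh3a differed by -0.26. Pdk4, Pdp2 and Pdhb kept a difference above 0, and Idh3a one below 0, under every scaling tried.

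**Figure D3:**
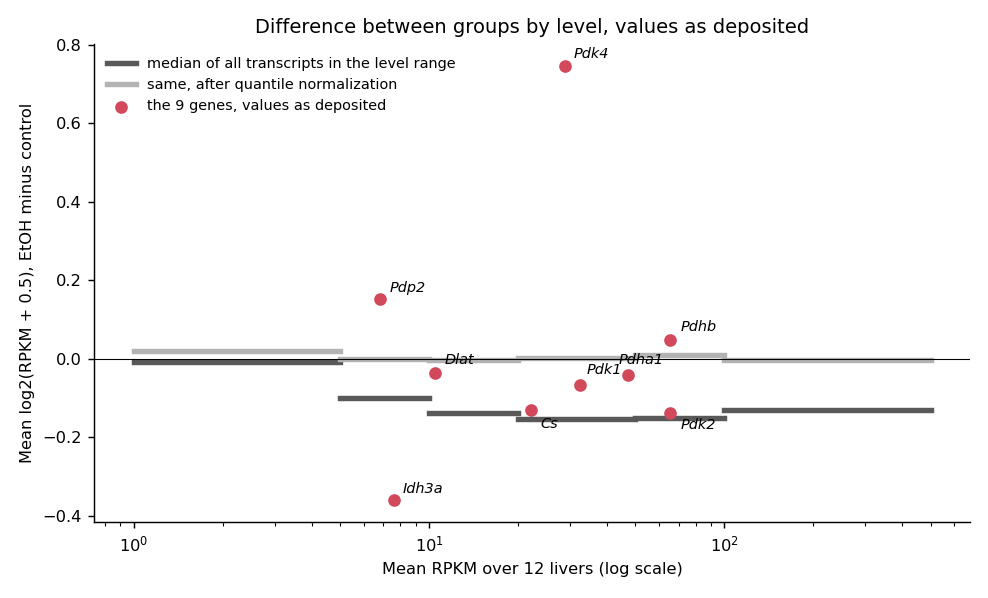
Difference in mean log2(RPKM + 0.5), EtOH minus control, against the mean RPKM over 12 livers (log scale) for the 9 genes as deposited (red points). Dark bars give the median of all transcripts in each level range as deposited and light bars the same after quantile normalization; Pdk4 stands 0.90 above the median of its range, and Pdk2 and Cs lie within 0.02 of theirs.

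**Figure D4:**
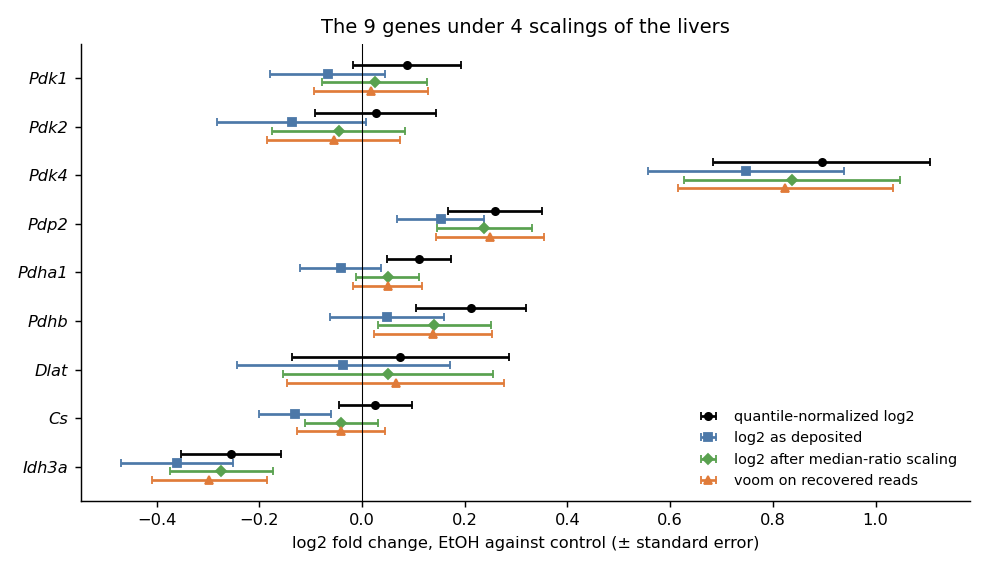
Log2 fold change of EtOH against control livers (± standard error, n = 6 each) for the 9 genes under 4 scalings of the livers: quantile-normalized log2(RPKM + 0.5), the deposited scale, median-ratio scaling, and voom on recovered reads. Pdk4 lies between 0.75 and 0.89 under all 4, while Pdk1, Pdk2, Pdha1, Dlat and Cs change sign between scalings.

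The remaining genes of the pathway were read from lists of kinases, phosphatases, complex subunits, TCA cycle enzymes, pyruvate supply and lipoic acid attachment. Of the 30 of these genes that were tested and are not among the 9, 0 were called by limma in either direction and 0 by voom on the recovered reads. Of the 30, 7 had an unadjusted p under 0.05 (limma), near the share of 24.3% among transcripts with a mean of at least 1 RPKM. The log2 fold changes of the 30 ran from -0.55 to 0.31 around a median of 0.05. By list, 1 of 4 kinases was called higher, and 0 of 3 phosphatases, 0 of 5 complex subunits, 0 of 6 TCA entry enzymes and 0 of 11 enzymes of the rest of the cycle were called. Of the rest of the cycle, Suclg2, a subunit of the succinyl-CoA synthetase that makes GTP, had the smallest p, at 113 ± 8.07 RPKM in control and 116 ± 7.10 RPKM in EtOH livers, with a log2 fold change of 0.20 and an adjusted p of 0.090. On the deposited scale these were 0.04 and 0.75 (limma). Mdh2 was the 1 gene of this list whose groups did not overlap as deposited, at 131 ± 13.2 RPKM in control and 108 ± 7.94 RPKM in EtOH livers. On that scale the median difference of transcripts between 100 and 500 RPKM was -0.13. After quantile normalization the log2 fold change of Mdh2 was -0.11 and its adjusted p 0.24 (limma). None of 5 genes of pyruvate supply and carboxylation was called. Among them Pc, the pyruvate carboxylase that turns pyruvate into oxaloacetate for gluconeogenesis, had a log2 fold change of 0.19 and an adjusted p of 0.24, at 118 ± 18.6 and 120 ± 9.59 RPKM. The complex needs lipoic acid on its E2 subunit, and of 5 genes of lipoic acid attachment 0 were called, with a median log2 fold change of -0.37. The log2 fold change was below 0 for 4 of them and 0.08 for Lias. Lipt1 and Lipt2, among the 4, were under 1 RPKM in both groups, on 33 and 32 control reads. Mecr, the last reductase of mitochondrial fatty acid synthesis, which supplies the lipoic acid precursor, was at 20.7 ± 2.90 RPKM in control and 14.2 ± 1.51 RPKM in EtOH livers (SD, n = 6 each). The groups did not overlap for Mecr as deposited, the log2 fold change was -0.37 and the adjusted p was 0.064 (limma). Of 12 fits that left out 1 liver, 1 called Mecr, at an adjusted p of 0.044 without control animal 6. Mecr was called in 3 of 11 other settings. Pdha2 and Mpc2 were not analysed here, having no row under a matching name.

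**Figure D5:**
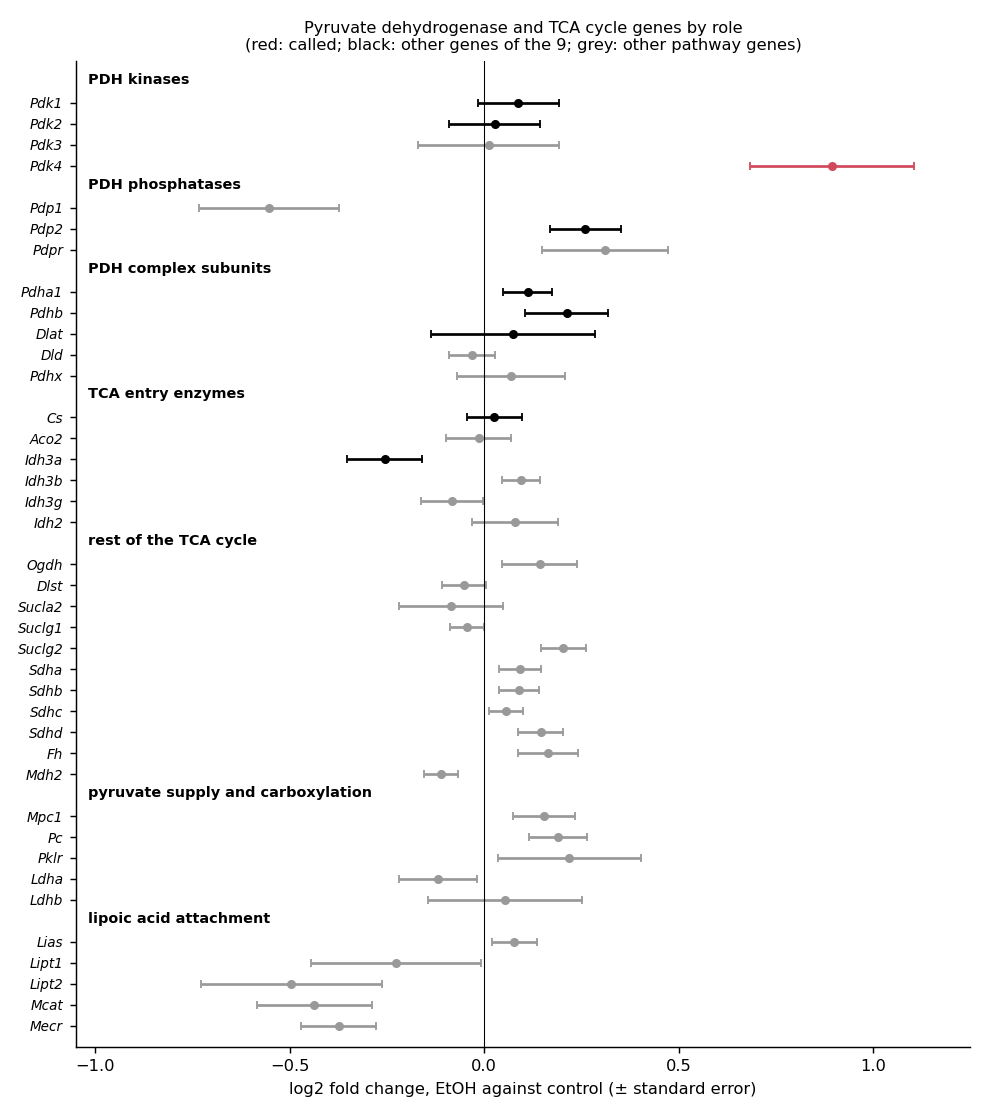
Log2 fold change of EtOH against control livers (± standard error, n = 6 each) for 39 genes of the pathway ordered by role, from quantile-normalized log2(RPKM + 0.5). Red marks the 1 called gene, Pdk4, at 0.89, black the other genes of the 9, and grey the 30 remaining pathway genes, which lie between -0.55 and 0.31.

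Transcription factors and coactivators known to act on Pdk4 were examined as a further list. Of 8 tested, 1 was called. Nr3c1, the glucocorticoid receptor, read from the more abundant of its 2 rows, was higher in EtOH livers, at 25.2 ± 3.13 RPKM against 18.8 ± 2.20 RPKM (SD, n = 6 each). Its log2 fold change was 0.56 with a standard error of 0.10 and an adjusted p of 0.016 (limma), and it was called in all 12 fits that left out 1 liver and in 10 of 11 other settings. Ppara, a fatty acid sensor, had a log2 fold change of 0.59 and an adjusted p of 0.096, Foxo3 one of 0.67 and 0.22, Foxo1 one of 0.27 and 0.47, and Ppargc1a one of 0.39 and 0.49. Ppard, the related receptor delta, had a log2 fold change of -0.99 and an adjusted p of 0.089, and Hnf4a and Esrra were within 0.01 of 0. Of 8 tested targets of PPAR-alpha other than Pdk4, 0 were called by limma or by voom. The median log2 fold change was 0.02 over the list, which includes Acot1 on 2 control and 0 EtOH reads. Of the 8, 4 had an unadjusted p under 0.05 (limma), where 24.3% of transcripts with a mean of at least 1 RPKM did. These 4 did not share a direction, since the log2 fold changes of Cpt1a, Angptl4 and Cyp4a1 were 0.96, 0.58 and 0.28, and that of Fgf21, a fasting hormone, was -0.91. The Fgf21 value rested on few reads, 34 in control and 18 in EtOH livers. Cpt1a, which admits fatty acids to mitochondria, was at 23.5 ± 7.12 RPKM in control and 43.5 ± 18.1 RPKM in EtOH livers, with an adjusted p of 0.089 (limma). Of 12 fits that left out 1 liver, 2 called Cpt1a, at an adjusted p of 0.038 without control animal 6 and 0.046 without EtOH animal 1. The other 10 of these fits did not call Cpt1a, nor did 10 of 11 other settings. Acadm, an enzyme of fatty acid oxidation, had a log2 fold change of 0.03 and an adjusted p of 0.84 (limma).

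The 3 transcripts most like Pdk4 over the 12 livers were found among 11086 transcripts by the correlation of their normalized log2 values. Ypel2 (listed as RGD1311564) had a Pearson correlation of 0.956 and a Spearman correlation of 0.916. Ppm1k, a mitochondrial phosphatase that activates the branched-chain ketoacid dehydrogenase complex, had 0.944 by both measures. Crebrf (listed as RGD1310862), a regulator of the CREB3 pathway, had 0.943 and 0.895. The livers fall into the 2 groups, and the points share library and depth, so these values describe likeness across both groups together and carry no test. Ppm1k was at 9.21 ± 2.74 RPKM in control and 16.1 ± 2.67 RPKM in EtOH livers (SD, n = 6 each), a difference that its choice by likeness to Pdk4 over both groups builds in.

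Whole liver holds several cell types, and fewer cells of a type cannot be told apart from less RNA per cell in such samples. Hepatocyte markers were abundant in all livers, with a summed level of 81305 to 108379 RPKM in control and 89188 to 114713 RPKM in EtOH livers. Of 5 tested, 1 was called, Cps1, at a log2 fold change of 0.58. Alb and Tf, among the 5, could not be called in the test, since quantile normalization gave each the same mean in both groups. As deposited, Alb was at 70352 ± 9238 RPKM in control and 79085 ± 8514 RPKM in EtOH livers (SD, n = 6 each). Tf was at 15252 ± 766 and 15074 ± 789 RPKM. Markers of Kupffer cells, the resident macrophages, summed to 81.1 to 125 RPKM in control and 114 to 147 RPKM in EtOH livers, and 3 of 5 were called higher, Clec4f, Cd163 and Vsig4. One of 5 stellate cell markers (Col1a2) and 1 of 3 endothelial markers (Cdh5) were called higher, with sums of 5.13 to 9.85 against 8.29 to 13.7 RPKM and of 24.5 to 31.3 against 27.8 to 38.6 RPKM. None of 3 biliary markers was called, with sums of 4.27 to 8.16 and 3.69 to 7.67 RPKM. When 1 liver at a time was left out, Vsig4 was called in 12 of 12 fits, Cps1 in 8, Clec4f in 7, Col1a2 in 4, Cd163 in 2 and Cdh5 in 1. Of 11 other settings, Vsig4 was called in 11, Cps1 and Col1a2 in 10, Clec4f in 9, Cd163 in 7 and Cdh5 in 6, and on the deposited scale the adjusted p was 0.090 for Clec4f, 0.061 for Cd163 and 0.085 for Cdh5 (limma). The part of these cell types in the Pdk4 difference was not tested.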

How the data were processed

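Liver RNA of 6 control and 6 EtOH rats was sequenced from poly(A)-selected TruSeq libraries pooled in 1 lane. The authors mapped the reads in CLCbio Genomics Workbench and deposited RPKM values per transcript; no source used here names the genome build. Deposited columns of the authors' own comparison (fold changes, test statistics, p-values and false discovery rates) were not used. Groups were taken from the sample labels. Whole reads were recovered for 100% of the tested transcripts (tolerance 0.01 read). RPKM values were quantile-normalized as log2(RPKM + 0.5) and fitted with limma 3.58.1 in R 4.3.3, with a mean-variance trend and Benjamini-Hochberg adjustment over 21718 transcripts. A fold change on this scale understates that of low transcripts. On simulated data with 200 changed transcripts of 20854, 22% of 1.5-fold and 76% of 2-fold changes were recovered. The changed transcripts were drawn from the more abundant ones, and every transcript was given the same spread between livers beyond counting error. Recovery of changes in low or more variable transcripts was not simulated. Named genes were the 9 genes, list genes that were called, the gene of smallest p in each list, and the 3 transcripts most like each called gene. Pdpr, Pdhx, Idh3g, the other regulators, Acadm, Angptl4, Fgf21, Cyp4a1, Acot1, Mdh2, Lias, Lipt1, Lipt2, Alb and Tf were added after their values were seen. The 9 genes and the 14 lists were chosen with earlier results of these data known. Motifs were searched in 250 bases before RefSeq starts. Alternatives changed the pseudocount (0.1 and 1), scaling, square-root scale, filters (mean RPKM of 0.1 and 1), trend, replicate block and each liver left out; voom on recovered reads was added after the data were seen, and it called 511 transcripts.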

Additional observations from a re-analysis of the deposited data

Results flagged for a closer look

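In 2 of 82 groups of 6 livers, taken from genes named with values, 1 liver stood apart from the rest by more than Dixon's 95% critical gap. Vsig4, a Kupffer cell marker, was at 18.4 RPKM in EtOH animal 2, the lowest EtOH liver. Pdpr, the regulatory subunit of the phosphatase, was at 6.18 RPKM in control animal 5, the highest control liver. Chance sets about 1 in 20 groups apart in this way.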

How the results depend on the processing

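Pdk4 was higher in EtOH livers in every fit, with log2 fold changes on the log2 scales of 0.75 to 1.05 and adjusted p of 0.011 to 0.158, and the number of the 9 genes called was 1 or 0. It was 0 on the deposited scale, with median-ratio scaling, with the pooled-error test on square-root values, without the mean-variance trend, with voom and with the replicate block, and between 0 and 1 when 1 liver was left out. The 526 calls became 322 with the pooled-error test and 857 among transcripts with a mean of at least 1 RPKM. Leaving out 1 liver gave between 212 and 656 calls, with 275 without control animal 2, 285 without control animal 4, 212, 252, 295 and 298 without EtOH animals 2, 3, 4 and 5. On the deposited scale 83.7% of 774 calls were lower in EtOH livers, against 53.4% of 526, and with median-ratio scaling 63.5% of 531 were. The causes were not tested.

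On the deposited scale the log2 fold change turned to -0.067 for Pdk1, -0.14 for Pdk2, -0.042 for Pdha1, -0.037 for Dlat, -0.13 for Cs and -0.081 for Idh3b. With median-ratio scaling it was -0.046 for Pdk2 and -0.041 for Cs, and with voom -0.055 and -0.041. Leaving out 1 liver gave -0.034 to 0.090 for Pdk2, -0.091 to 0.19 for Dlat, -0.013 to 0.066 for Cs and -0.090 to 0.13 for Pdk3. The replicate block gave 113 calls, with an adjusted p of 0.158 for Pdk4 and 0.078 for Nr3c1. Deviations of same-numbered livers correlated between -0.067 and 0.032, and 1 of 6 numbers matched itself best. These correlations show no pairing by animal number over 11086 transcripts, but they cannot exclude a pairing that touched few of them. Depth was low for Pdp1, with 47 control and 36 EtOH reads, and for Pdk3, with 21 and 31.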
